A study of Mus musculus with 18 samples.

Results

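Retinoic acid metabolism and reception were followed through 10 genes of the mouse dentate gyrus, chosen by symbol and found in each of the authors' 3 tables of 24015 rows. They are Cyp26b1, Aldh1a1, Aldh1a2, Aldh1a3, Rara, Rarb, Rarg, Rxra, Rxrb and Rxrg. The list was drawn up with the fold changes of these tables already known, so the values below describe the genes and are no independent evidence for them. RNA was sequenced from microdissected dentate gyrus of 18 C57BL/6 mice aged 8 weeks, with 3 libraries in each of 6 groups and each library from an individual animal. Mice with a control hairpin were taken at E1 (shRNA-Ctrl_E1) or E0 (shRNA-Ctrl_E0), mice with a hairpin named for c-Fos likewise (shRNA-cFos_E1 and shRNA-cFos_E0), and overexpression groups received c-Fos (cFos_OE) or a yellow fluorescent protein (EYFP_OE). The series describes a study of neuronal activation, and the names of the tables set E1 against a sham state. The labels name no vector, no promoter driving it, no cells that carried it and no stimulus.

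Retinoic acid is a small lipid made from vitamin A that switches genes on through nuclear receptors. Retinol is oxidized to retinaldehyde, and the 3 Aldh1a enzymes oxidize retinaldehyde to retinoic acid. Cyp26 enzymes, cytochromes of the P450 class, hydroxylate retinoic acid and so end its action. Retinoic acid receptors (Rara, Rarb and Rarg) bind DNA as pairs with retinoid X receptors (Rxra, Rxrb and Rxrg), which also pair with other nuclear receptors. In the adult hippocampus the pathway is known for roles in synaptic scaling and in the birth of granule neurons, and the meninges are a known site of Aldh1a2.

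Promoter sequences were read from RefSeq (build GRCm38.p6, later than the mm9 build of the tables) for 9 of the 10 genes, with 17 start sites in all. Each window holds the 250 bases before the start. Shown here are Cyp26b1, the gene with the largest change, Rarb, whose promoter carries a well-known receptor element, and Aldh1a1, the one member with an AP-1 match. Capitals mark motif matches, and the Cyp26b1 window has none. The window of the other Aldh1a1 start (chr19:20601718-20601967), not shown, has none either.
Cyp26b1 (chr6:84593811-84594060, minus strand): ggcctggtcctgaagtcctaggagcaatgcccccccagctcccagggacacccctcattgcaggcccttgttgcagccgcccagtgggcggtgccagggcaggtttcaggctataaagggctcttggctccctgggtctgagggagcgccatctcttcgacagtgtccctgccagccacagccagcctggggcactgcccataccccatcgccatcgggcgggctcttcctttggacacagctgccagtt
Rarb (chr14:16575477-16575726, minus strand): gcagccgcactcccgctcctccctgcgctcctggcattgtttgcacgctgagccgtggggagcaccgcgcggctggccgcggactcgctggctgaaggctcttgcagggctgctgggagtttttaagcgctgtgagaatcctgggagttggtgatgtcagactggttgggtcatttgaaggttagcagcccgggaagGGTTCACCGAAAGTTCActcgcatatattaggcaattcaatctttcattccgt
Aldh1a1, the more upstream of 2 starts (chr19:20492333-20492582, plus strand): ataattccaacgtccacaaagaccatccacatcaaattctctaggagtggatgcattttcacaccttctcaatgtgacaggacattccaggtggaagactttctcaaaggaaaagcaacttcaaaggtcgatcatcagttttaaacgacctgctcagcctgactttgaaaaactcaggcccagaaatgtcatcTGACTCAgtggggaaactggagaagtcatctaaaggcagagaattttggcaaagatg
Both strands were searched for the AP-1 motif TGACTCA, the CRE motif TGACGTCA, the receptor core motif AGGTCA and 2 such cores in a row with 5 or 2 bases between them. AP-1 is the site bound by c-Fos with a Jun partner. It was found in 1 of the 17 windows, against 4.46% of 32851 promoter windows of the same length. The CRE was found in 0 of the 17 windows (1.55% of all windows), the receptor core in 3 (14.0%), and the repeats spaced by 5 and by 2 in 0 each (0.00913% of all windows for either). In Rarb the known element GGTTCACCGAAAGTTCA spans bases 53 to 37 before the start, and the pattern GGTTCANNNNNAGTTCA, added after the windows were read, was present in 0.00609% of all windows. A match is a description of letters and not a measured binding site.

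Fos, the targeted gene, had a log2 fold change of 3.34 ± 0.20 (± standard error here and below) with c-Fos overexpression in the authors' deposited table, whose direction was read from this value, since its header does not state which group is on top. Its E1 response was 2.33 ± 0.15 with shRNA-cFos and 3.36 ± 0.14 with shRNA-Ctrl in the authors' deposited tables. Since 0 columns give values of single libraries, sequencing depth is unknown, no animal could be shown or left out, and the precision is that of the authors' standard errors. Group levels below are estimates in normalized counts, computed from the authors' deposited tables (mean count and the fold change with its statistical shrinkage removed); they carry no error, hold within 1 table, and are not corrected for gene length. With that shrinkage removed, Fos had 6.02 ± 0.37 with overexpression, 2.55 ± 0.16 with shRNA-cFos and 3.58 ± 0.15 with shRNA-Ctrl. The shrunken values of Fos above are therefore not on a common scale. Its standard error with overexpression was 99.4% of the largest in that comparison, so its size there is uncertain. In bulk tissue, fewer cells of a type and less RNA per cell cannot be told apart. A gene is called where the authors' adjusted p is under 0.05. By that rule 3 of 9 tested members were called for shRNA-cFos, where 28.1% of 14388 tested genes were. For shRNA-Ctrl 4 of 10 were called (33.0% of 15675 tested genes), and for overexpression 1 of 10 (13.0% of 15827 tested genes). These counts are given as a description, since the same fold changes were known when the genes were listed. In all, 7 of the 10 genes were called in at least 1 comparison, as were 49.3% of the 15988 genes tested in at least 1.

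**Figure D1:**
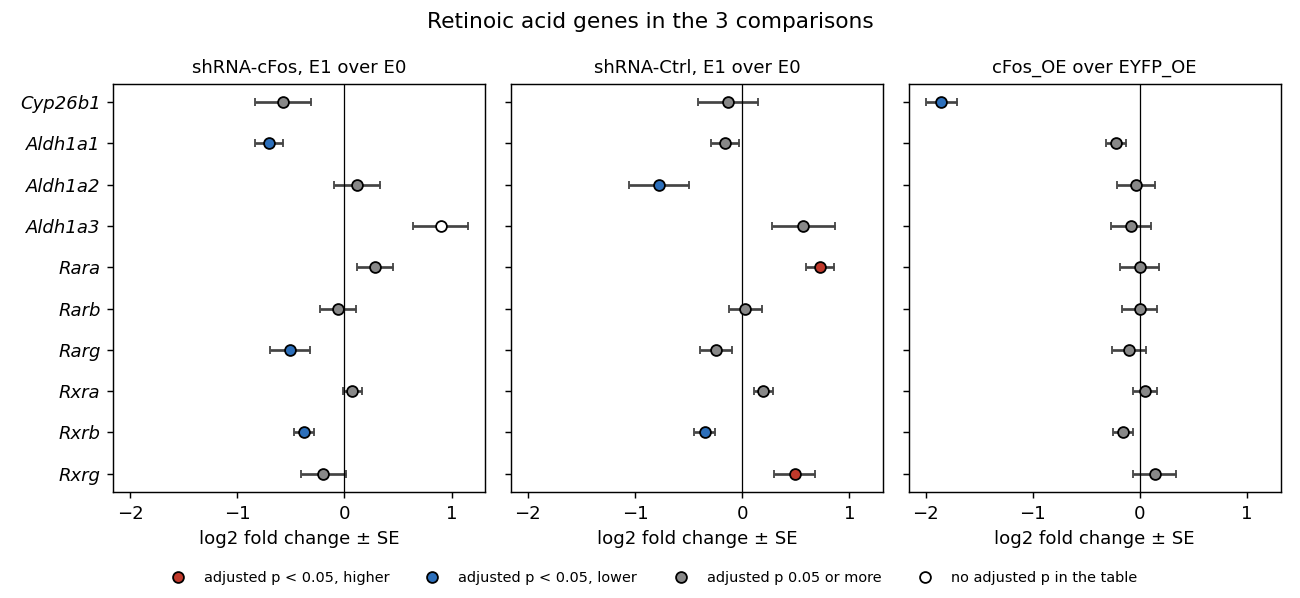
Log2 fold change ± standard error (x axis) of the 10 retinoic acid genes in the authors' deposited tables, in 3 panels for E1 over E0 with shRNA-cFos, E1 over E0 with shRNA-Ctrl, and cFos_OE over EYFP_OE. Colour gives the call; with overexpression Cyp26b1 stands at -1.86 while the other 9 genes lie close to 0.

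Cyp26b1, which clears retinoic acid, had the lowest deposited log2 fold change of all tested genes with c-Fos overexpression. Its estimated level was 77.6 normalized counts in cFos_OE, against 349.8 in EYFP_OE, computed from the authors' deposited table. The log2 fold change in the authors' deposited table was -1.86 ± 0.14, a 3.62-fold lower level, with an adjusted p of 6.3e-35 (DESeq2, Benjamini-Hochberg). With the shrinkage removed it was -2.17 ± 0.17, computed from the authors' deposited table. Among 15827 tested genes it ranked 1 by size of decrease, and the next lowest in the authors' deposited table was Nr4a1 at -1.41. That rank uses the shrunken fold changes, which are pulled toward 0 more strongly for imprecise genes. No rank was made with the shrinkage removed. Cyp26b1 also had the smallest p of the 8172 genes with a negative fold change. By the shrunken values, 13 genes were called and at least 2-fold lower with c-Fos, against 137 called and at least 2-fold higher, in the authors' deposited table. Markers of dentate granule neurons had a median log2 fold change of -0.32 there, with 3 of 8 lower and 1 higher, and those of hilar mossy cells a median of 0.02 with 0 of 4 called by DESeq2 (0 at an unadjusted p under 0.05), computed from the authors' deposited table. Of all tested genes 5.86% were lower and 7.10% higher with overexpression. The part of these cell types in the result was not tested.

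**Figure D2:**
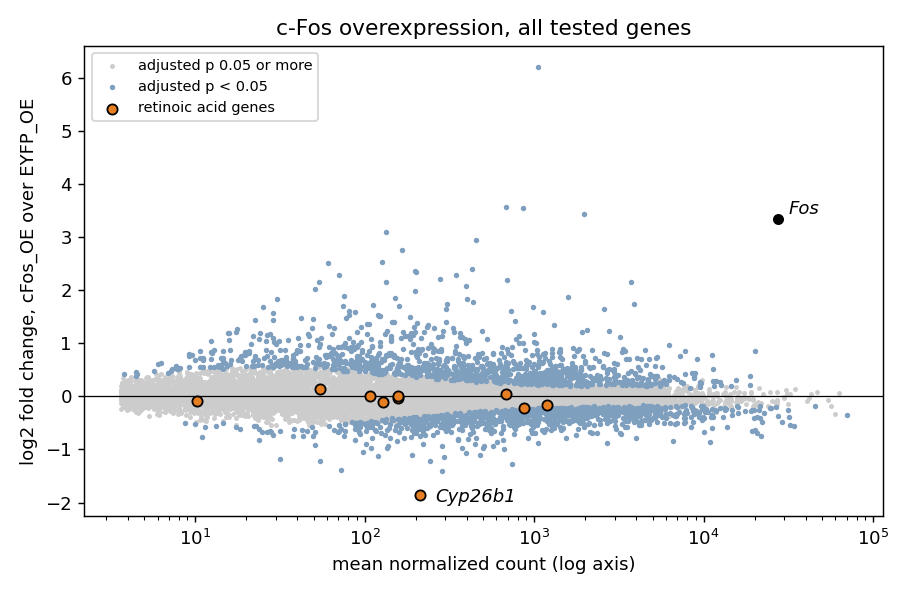
Mean normalized count (x axis, log scale) against the log2 fold change of cFos_OE over EYFP_OE (y axis) for 15827 tested genes of the authors' deposited table, with the retinoic acid genes in orange and Fos in black. Cyp26b1, at 214 mean normalized counts, is the lowest point at -1.86.

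After activation Cyp26b1 passed the threshold in neither hairpin arm, and its values there were unusually imprecise. With shRNA-cFos its estimated level was 326 normalized counts at E1 against 720.0 at E0, computed from the authors' deposited table. The log2 fold change in the authors' deposited table was -0.57 ± 0.26 (DESeq2 adjusted p = 0.090). With shRNA-Ctrl the estimated level was 459 at E1 against 528 at E0, computed from the authors' deposited table. There the authors' deposited table gave -0.13 ± 0.28 (DESeq2 adjusted p = 0.77). Its standard error was 2.44 times the median of genes of like mean count with shRNA-cFos and 2.81 times with shRNA-Ctrl, but 1.08 times with overexpression, computed from the authors' deposited tables. Of genes within 1.25-fold of its mean count, 99.9% had a smaller standard error with shRNA-cFos, 99.4% with shRNA-Ctrl and 85.1% with overexpression. The standard error with shRNA-cFos equals the largest that the authors' shrinkage allows, so the estimated levels of that arm are the least certain of those given here. The fold change with overexpression was lower than the E1 response by -1.28 ± 0.30 with shRNA-cFos and by -1.73 ± 0.32 with shRNA-Ctrl, computed from the authors' deposited tables and given without a test, since the gene was chosen for its value with overexpression. These gaps are between shrunken values, and the shrinkage differs between the comparisons. With it removed, Cyp26b1 had -2.17 ± 0.17 with overexpression, -1.14 ± 0.53 with shRNA-cFos and -0.20 ± 0.43 with shRNA-Ctrl. Those errors are larger, so the 2 gaps are less certain than their printed errors.

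Of the Aldh1a genes, which make retinoic acid, Aldh1a1 fell at E1 with shRNA-cFos, Aldh1a2 fell at E1 with shRNA-Ctrl, and Aldh1a3 was called in none of the comparisons. Aldh1a1 fell at E1 with shRNA-cFos, to an estimated 1316 normalized counts at E1, against 2213 at E0, computed from the authors' deposited table. Its log2 fold change in the authors' deposited table was -0.70 ± 0.13 (DESeq2 adjusted p = 6.7e-07). With shRNA-Ctrl it had an estimated 1622 normalized counts at E1 against 1826 at E0, and a log2 fold change of -0.16 ± 0.13 (DESeq2 adjusted p = 0.35), from the authors' deposited table. Overexpression gave an estimated 802 normalized counts in cFos_OE, against 944 in EYFP_OE, and -0.22 ± 0.09 (DESeq2 adjusted p = 0.090), from the authors' deposited table. Its standard error was 1.51 and 1.57 times that of genes of like mean count with shRNA-cFos and shRNA-Ctrl, computed from the authors' deposited tables. At E1 with shRNA-cFos 4 of 8 astrocyte markers were higher and 2 lower, where 16.3% and 11.7% of all tested genes were. Their median was 0.04 in the authors' deposited table, and their part was not tested.

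Aldh1a2 fell at E1 with shRNA-Ctrl, and so did the genes of meningeal fibroblasts. Its estimated level was 79.3 normalized counts at E1, against 184.5 at E0, and its log2 fold change was -0.77 ± 0.28 (DESeq2 adjusted p = 0.022), from the authors' deposited table. Its standard error there was 1.84 times the median of genes of like mean count and 96.2% of the largest in the table, so these levels are uncertain, computed from the authors' deposited table. Of 11 meningeal fibroblast markers such as Col1a1, 9 were lower and 0 higher in the same comparison, with a median of -0.80 and a range of -1.20 to -0.26, computed from the authors' deposited table. In that comparison 16.2% of all tested genes were lower. The summed estimated level of the markers was 2074 normalized counts at E1 against 4746 at E0. That sum is uncertain too, since Igf2, Col1a1 and Col1a2, large terms of it, had standard errors of 97.8%, 97.5% and 98.9% of the largest. For the summed levels that follow, Igf2 stood at 97.4% with shRNA-cFos and 99.8% with overexpression. With shRNA-cFos Aldh1a2 stood at 0.12 ± 0.21 (DESeq2 adjusted p = 0.73) in the authors' deposited table, and 0 of the 11 markers were called by DESeq2 (0 at an unadjusted p under 0.05), with a median of 0.04 and a summed level of 2557 at E1 against 2359.6 at E0, computed from the authors' deposited table. With overexpression Aldh1a2 was at -0.03 ± 0.18 (DESeq2 adjusted p = 0.96) in the authors' deposited table, and 1 of 11 markers was higher and 1 lower, with a median of 0.02 and a summed level of 5176 in cFos_OE against 4263 in EYFP_OE, computed from the authors' deposited table. Over all tested genes 7.10% were higher and 5.86% lower with overexpression. None of the 11 markers was at 0 in any of the 3 tables. Choroid plexus markers, another tissue next to the hippocampus, were called by DESeq2 at E1 for 0 of 4 tested with shRNA-cFos (0 at an unadjusted p under 0.05) and were lower for 2 of 7 with shRNA-Ctrl (median -0.55), computed from the authors' deposited tables. The part of meningeal tissue in the Aldh1a2 values was not tested.

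**Figure D3:**
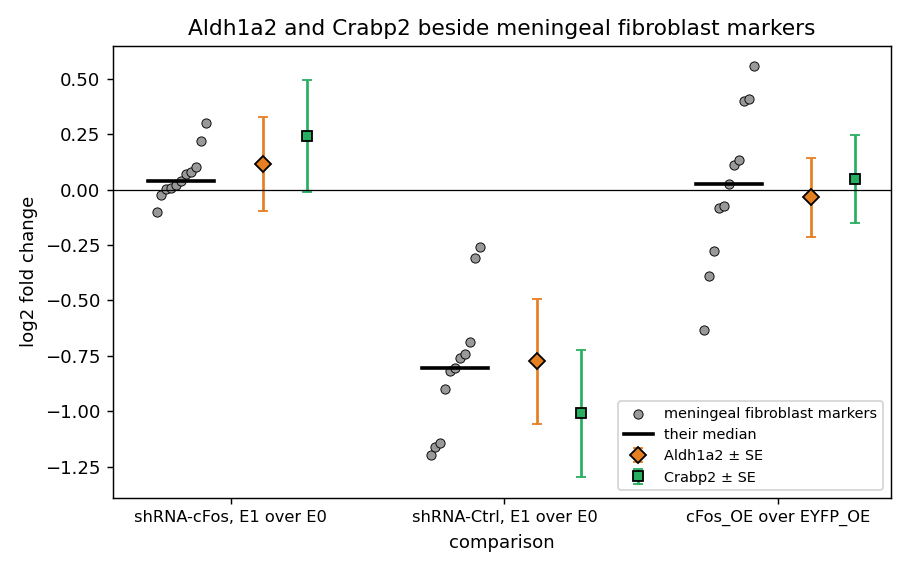
Log2 fold change (y axis) of 11 meningeal fibroblast markers (grey, sorted by value, with a bar at the median) beside Aldh1a2 and Crabp2 (± standard error) in each comparison of the authors' deposited tables. At E1 the markers have a median of 0.04 with shRNA-cFos, and with shRNA-Ctrl they lie between -1.20 and -0.26, with Aldh1a2 at -0.77 and Crabp2 at -1.01.

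Aldh1a3 was the least abundant member by count, with a mean of 10.7 normalized counts for shRNA-cFos, 13.1 for shRNA-Ctrl and 10.3 for overexpression in the authors' deposited tables. It had 0.90 ± 0.26 at E1 with shRNA-cFos in the authors' deposited table, with an unadjusted DESeq2 p of 0.00048 and no adjusted p, since its mean was under the smallest mean with one (12.2). With shRNA-Ctrl it had 0.57 ± 0.29 (DESeq2 adjusted p = 0.12) and with overexpression -0.08 ± 0.19 (DESeq2 adjusted p = 0.89) in the authors' deposited tables. Both E1 values were positive, and neither was called by the authors' adjusted p.

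Of the retinoic acid receptors, Rara rose and Rarg fell, each in 1 hairpin arm, and Rarb was called in none of the comparisons. Rara, the receptor best known for retinoic acid signalling at hippocampal synapses, rose at E1 with shRNA-Ctrl to an estimated 234 normalized counts, against 138 at E0, computed from the authors' deposited table. Its log2 fold change in the authors' deposited table was 0.73 ± 0.13 (DESeq2 adjusted p = 3.9e-07). With shRNA-cFos it had an estimated 157 normalized counts at E1 against 126 at E0 and a log2 fold change of 0.29 ± 0.17 (DESeq2 adjusted p = 0.20), from the authors' deposited table. With overexpression its value was -0.0021 ± 0.18 (DESeq2 adjusted p = 0.997) in the authors' deposited table.

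Rarg fell at E1 with shRNA-cFos, with an estimated 81.6 normalized counts at E1, against 122.8 at E0, and a log2 fold change of -0.51 ± 0.18 (DESeq2 adjusted p = 0.023), from the authors' deposited table. With shRNA-Ctrl it had -0.25 ± 0.15 (DESeq2 adjusted p = 0.20) and with overexpression -0.10 ± 0.16 (DESeq2 adjusted p = 0.82) in the authors' deposited tables. All 3 values of Rarg were negative, and 1 of them was called. Rarb, whose own gene is a textbook target of retinoic acid through the element shown above, had log2 fold changes of -0.06 ± 0.17 with shRNA-cFos, 0.03 ± 0.15 with shRNA-Ctrl and -0.0016 ± 0.16 with overexpression in the authors' deposited tables (DESeq2 adjusted p = 0.84, 0.90 and 0.998). Its 3 values thus lay within 1 standard error of 0. An exon of Rarb overlaps 2 genes on the other strand in the GENCODE annotation of a later build, Top2b and Gm48162, and reads of such genes cannot be told apart where strand was not used in counting.

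Among the retinoid X receptors, Rxrb fell at E1 with both hairpins, and Rxrg rose with shRNA-Ctrl. Rxrb had an estimated 1119.8 normalized counts at E1 against 1471 at E0 with shRNA-cFos, and 1446 at E1 against 1855 at E0 with shRNA-Ctrl, computed from the authors' deposited tables. The log2 fold changes in the authors' deposited tables were -0.38 ± 0.09 (DESeq2 adjusted p = 0.00043) with shRNA-cFos and -0.35 ± 0.10 (DESeq2 adjusted p = 0.0018) with shRNA-Ctrl. Rxrb was the only member called in both arms. Its value with overexpression was -0.16 ± 0.09 (DESeq2 adjusted p = 0.36) in the authors' deposited table.

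Rxrg rose at E1 with shRNA-Ctrl to an estimated 89.8 normalized counts, against 61.0 at E0, with a log2 fold change of 0.49 ± 0.19 (DESeq2 adjusted p = 0.034), from the authors' deposited table. With shRNA-cFos it stood at 58.7 estimated normalized counts at E1 against 69.5 at E0, a log2 fold change of -0.20 ± 0.21 (DESeq2 adjusted p = 0.53), from the authors' deposited table. Its value with overexpression was 0.14 ± 0.20 (DESeq2 adjusted p = 0.80) in the authors' deposited table. Rxra had 0.08 ± 0.09 with shRNA-cFos, 0.20 ± 0.09 with shRNA-Ctrl and 0.05 ± 0.11 with overexpression in the authors' deposited tables (DESeq2 adjusted p = 0.59, 0.075 and 0.89) and was called in none.

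Whether the E1 response differed between the hairpins was asked by subtracting the shRNA-Ctrl log2 fold change from that with shRNA-cFos. These 2 comparisons share no animals, but the genes were listed with both known, so the values describe them. The test (2-sided normal p, Benjamini-Hochberg over 14386 genes) called 2 of 9 members, where 23.8% of all genes were called. Aldh1a1 had the lower response in the shRNA-cFos arm, with a log2 difference of -0.54 ± 0.18 (adjusted p = 0.016), and Aldh1a2 had the higher response there, by 0.89 ± 0.35 (adjusted p = 0.049), both computed from the authors' deposited tables by that normal approximation. With the shrinkage removed, which differs between the 2 tables, the Aldh1a2 difference was 1.36 (adjusted p = 0.038) and that of Cyp26b1 -0.94 (adjusted p = 0.35), computed from the authors' deposited tables by the same approximation. For Aldh1a2 the call was lost when the p was adjusted over every gene with a p (0.064), and meningeal markers differed likewise, with 6 of 11 higher, 0 lower and a median of 0.85, computed from the authors' deposited tables. By this test 12.9% of all genes were higher. Rxrg (-0.68 ± 0.28), Rara (-0.44 ± 0.21) and Cyp26b1 (-0.44 ± 0.38) did not pass (adjusted p = 0.060, 0.12 and 0.45, computed from the authors' deposited tables by the same approximation). For Rara and Rxrg, a call with shRNA-Ctrl and none with shRNA-cFos was therefore not a called difference between the hairpins. The differences of Rxrb (-0.03 ± 0.13), Rxra (-0.12 ± 0.13), Rarb (-0.09 ± 0.23) and Rarg (-0.26 ± 0.23), also computed from the authors' deposited tables, missed the threshold too.

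**Figure D4:**
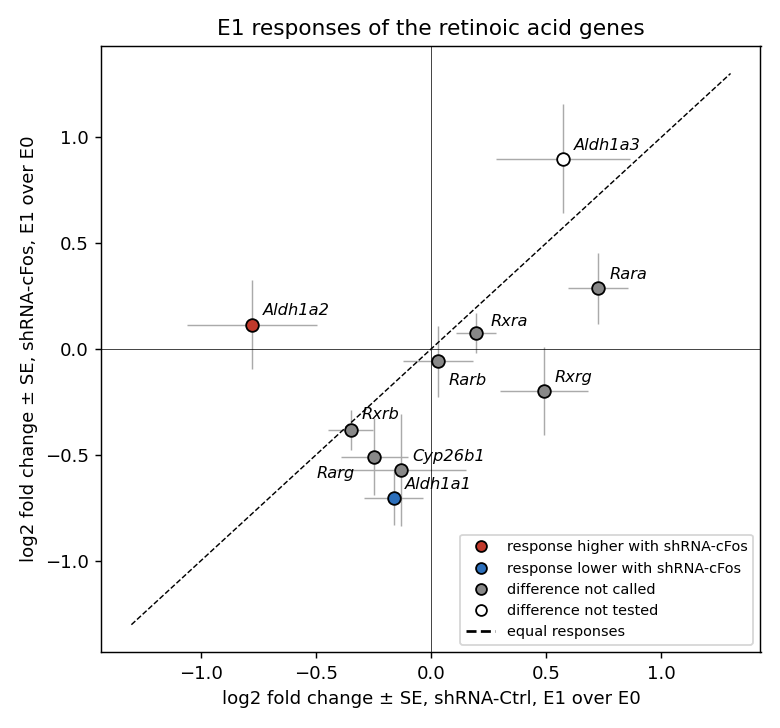
E1 response as log2 fold change ± standard error with shRNA-cFos (y axis) and with shRNA-Ctrl (x axis) for the 10 genes, from the authors' deposited tables; the dashed line marks equal responses. Aldh1a2 lies above the line, at 0.12 with shRNA-cFos and -0.77 with shRNA-Ctrl, and Aldh1a1 below it, at -0.70 with shRNA-cFos and -0.16 with shRNA-Ctrl; Aldh1a3 had no test of the difference.

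The wider retinoid pathway was described through 71 further genes. Of the 53 tested in at least 1 comparison 20 were called in at least 1, against 49.3% of all 15988 genes so tested. For shRNA-cFos 7 of 44 tested genes were higher and 4 lower (16.3% and 11.7% of all tested genes), and for shRNA-Ctrl 9 of 51 were higher and 7 lower (16.8% and 16.2%), counted in the authors' deposited tables. For overexpression 3 of 53 were higher and 5 lower (7.10% and 5.86% of all tested genes), counted in the authors' deposited table. The medians of the pathway were -0.02, 0.11 and 0.02 in these comparisons, against -0.0031, 0.0071 and -0.0067 over all tested genes, computed from the authors' deposited tables. The E1 response differed between the hairpins for 10 of 44, with 5 higher and 5 lower with shRNA-cFos (12.9% and 11.0% of all genes), computed from the authors' deposited tables.

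Among dehydrogenases and reductases that work on retinol and retinaldehyde, 2 of 8 tested fell at E1 with shRNA-cFos (11.7% of all tested genes were lower) and 4 of 9 with shRNA-Ctrl (16.2% of all), 0 rose in either arm, and 0 of 10 were called by DESeq2 with overexpression (0 at an unadjusted p under 0.05), counted in the authors' deposited tables. Rdh10, the main enzyme for the first oxidation in the embryo, had -0.30 ± 0.12 with shRNA-cFos and -0.30 ± 0.10 with shRNA-Ctrl in the authors' deposited tables. Rdh12, a retinal reductase of photoreceptors, had -0.73 ± 0.24 with shRNA-cFos and -0.67 ± 0.24 with shRNA-Ctrl in the authors' deposited tables. Both fell at E1 with either hairpin. Rdh14, another enzyme of the family, stood at -0.11 ± 0.13 with shRNA-cFos and fell with shRNA-Ctrl (-0.57 ± 0.09) in the authors' deposited tables, a difference of 0.46 ± 0.15 that was called (adjusted p = 0.014 by the normal approximation). Adh1, an alcohol dehydrogenase with a mean of only 6.34 normalized counts, was called lower with shRNA-Ctrl (-0.76 ± 0.29) in the authors' deposited table.

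Among carriers, Stra6 and Crabp2 fell at E1 with shRNA-Ctrl and Rbp4 rose with shRNA-cFos. Stra6, the retinol import receptor, had 0.24 ± 0.17 with shRNA-cFos and -0.58 ± 0.14 with shRNA-Ctrl in the authors' deposited tables, a called difference of 0.82 ± 0.22 (adjusted p = 0.0018 by the normal approximation). It also rose with overexpression, by 0.42 ± 0.15 in the authors' deposited table (DESeq2 adjusted p = 0.039). Crabp2, which carries retinoic acid to the nucleus, had -1.01 ± 0.29 with shRNA-Ctrl in the authors' deposited table and no adjusted p with shRNA-cFos. It was low in count, with an estimated 7.90 normalized counts at E1 against 25.2 at E0 with shRNA-Ctrl. Its standard error there was 97.8% of the largest in that comparison, so these levels are uncertain. Rbp4, the retinol carrier of blood, had 0.83 ± 0.26 with shRNA-cFos in the authors' deposited table (DESeq2 adjusted p = 0.0073). With shRNA-Ctrl it had 0.37, and the difference of 0.46 ± 0.35 was not called (adjusted p = 0.36 by the normal approximation). Rbp4 was low in count too, with an estimated 37.7 normalized counts at E1 against 15.1 at E0 with shRNA-cFos. Its standard error there was 96.9% of the largest. The meningeal marker values given with Aldh1a2 stand beside those of Stra6 and Crabp2 too, and their part was not tested. Cyp26a1, another retinoic acid hydroxylase, was low in count (16.8 mean normalized counts with overexpression) and had 0.41 ± 0.20 there in the authors' deposited table (DESeq2 adjusted p = 0.19), named after its value was seen.

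Partners of the retinoid X receptors held the largest changes of the pathway list. At E1 4 of 9 rose with shRNA-cFos (16.3% of all tested genes did) and 4 of 11 with shRNA-Ctrl (16.8% of all), with 0 lower in either. With overexpression 1 of 11 rose (7.10% of all) and 3 fell (5.86% of all), counted in the authors' deposited tables. Nr4a2 and Nr4a1, orphan receptors that neurons switch on within minutes of activity, rose at E1 by 3.81 ± 0.13 and 2.59 ± 0.23 with shRNA-cFos and by 4.03 ± 0.14 and 2.99 ± 0.20 with shRNA-Ctrl in the authors' deposited tables. With overexpression both fell, with -1.07 ± 0.13 for Nr4a2 and -1.41 ± 0.15 for Nr4a1 in the authors' deposited table. Ppard, a fatty acid receptor that can also respond to retinoic acid, rose at E1 with shRNA-cFos (0.71 ± 0.13) and with shRNA-Ctrl (0.85 ± 0.10) in the authors' deposited tables. Vdr, the vitamin D receptor, rose with overexpression (0.86 ± 0.20) and with shRNA-Ctrl (0.70 ± 0.29) in the authors' deposited tables, at mean counts of 14.6 and 9.77. Thra, a thyroid hormone receptor named after its values were seen, rose with shRNA-cFos (0.40 ± 0.07) and fell with overexpression (-0.30 ± 0.08) in the authors' deposited tables. With shRNA-Ctrl it had -0.17, and the difference between the hairpins, 0.56 ± 0.11, was called (adjusted p = 2.3e-05 by the normal approximation).

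Genes known in other settings to be induced by retinoic acid rose at E1 for 1 of 5 tested with shRNA-cFos (16.3% of all tested genes were higher) and for 4 of 7 with shRNA-Ctrl (16.8% of all), and 0 fell in either arm, counted in the authors' deposited tables. The difference between the hairpins was called for 3 of 5, all lower with shRNA-cFos, where 11.0% of all genes were lower. By the same test 3 of 7 microglial markers and 3 of 6 endothelial and mural markers were lower, and 0 higher. Astrocyte markers were lower for 3 of 8 and higher for 2, and granule neuron markers higher for 7 of 8 and lower for 0. The part of these cell types was not tested. Zfp703, a corepressor gene, had -0.20 ± 0.12 with shRNA-cFos and 1.002 ± 0.13 with shRNA-Ctrl in the authors' deposited tables, a difference of -1.20 ± 0.18 (adjusted p = 2.3e-09 by the normal approximation). Rarres2, which encodes the chemoattractant chemerin, had -0.20 ± 0.24 with shRNA-cFos and 0.92 ± 0.23 with shRNA-Ctrl, and Rai14 had -0.11 ± 0.18 with shRNA-cFos and 0.51 ± 0.15 with shRNA-Ctrl, in the authors' deposited tables. These 3 differences were all called, with Rarres2 at -1.12 ± 0.33 and Rai14 at -0.62 ± 0.24 (adjusted p = 0.0047 and 0.040 by the normal approximation, computed from the authors' deposited tables). Bhlhe40, a repressor of clock and activity genes, rose in both arms, by 0.83 ± 0.08 with shRNA-cFos and 0.72 ± 0.09 with shRNA-Ctrl, and fell with overexpression (-0.52 ± 0.09) in the authors' deposited tables. Zfp703 was the 1 of 7 that rose with overexpression (0.37 ± 0.11) in the authors' deposited table. Genes counted in other roles were left out of this list, so its counts depend on how genes were assigned. Among those left out, Rarb, a textbook target of retinoic acid, was called in none of the comparisons. The carriers Stra6 and Crabp2 fell at E1 with shRNA-Ctrl, and Stra6 had the higher response with shRNA-cFos.

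Of the remaining roles, coregulators were mostly not called: 1 of 11 was called in each hairpin arm, where 28.1% of all tested genes were with shRNA-cFos and 33.0% with shRNA-Ctrl, and 0 of 11 by DESeq2 with overexpression (5 at an unadjusted p under 0.05; 13.0% of all were called), counted in the authors' deposited tables. The corepressor Ncor1 had 0.44 ± 0.10 with shRNA-cFos and -0.08 ± 0.08 with shRNA-Ctrl, and the coactivator Ncoa1 had -0.07 ± 0.07 with shRNA-cFos and -0.31 ± 0.07 with shRNA-Ctrl, in the authors' deposited tables. Lpl, a lipase that releases retinol from circulating esters, fell in the shRNA-cFos arm (-0.38 ± 0.11), rose with shRNA-Ctrl (0.48 ± 0.13) and fell with overexpression (-0.62 ± 0.12) in the authors' deposited tables. Its difference between the hairpins, -0.86 ± 0.17, was called (adjusted p = 1.4e-05 by the normal approximation). Aox1, an aldehyde oxidase that can act on retinaldehyde, fell (-0.46 ± 0.16, shRNA-cFos arm, the authors' deposited table). With shRNA-Ctrl it had 0.07, and the difference of -0.53 ± 0.21 was not called (adjusted p = 0.054 by the normal approximation).

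**Figure D5:**
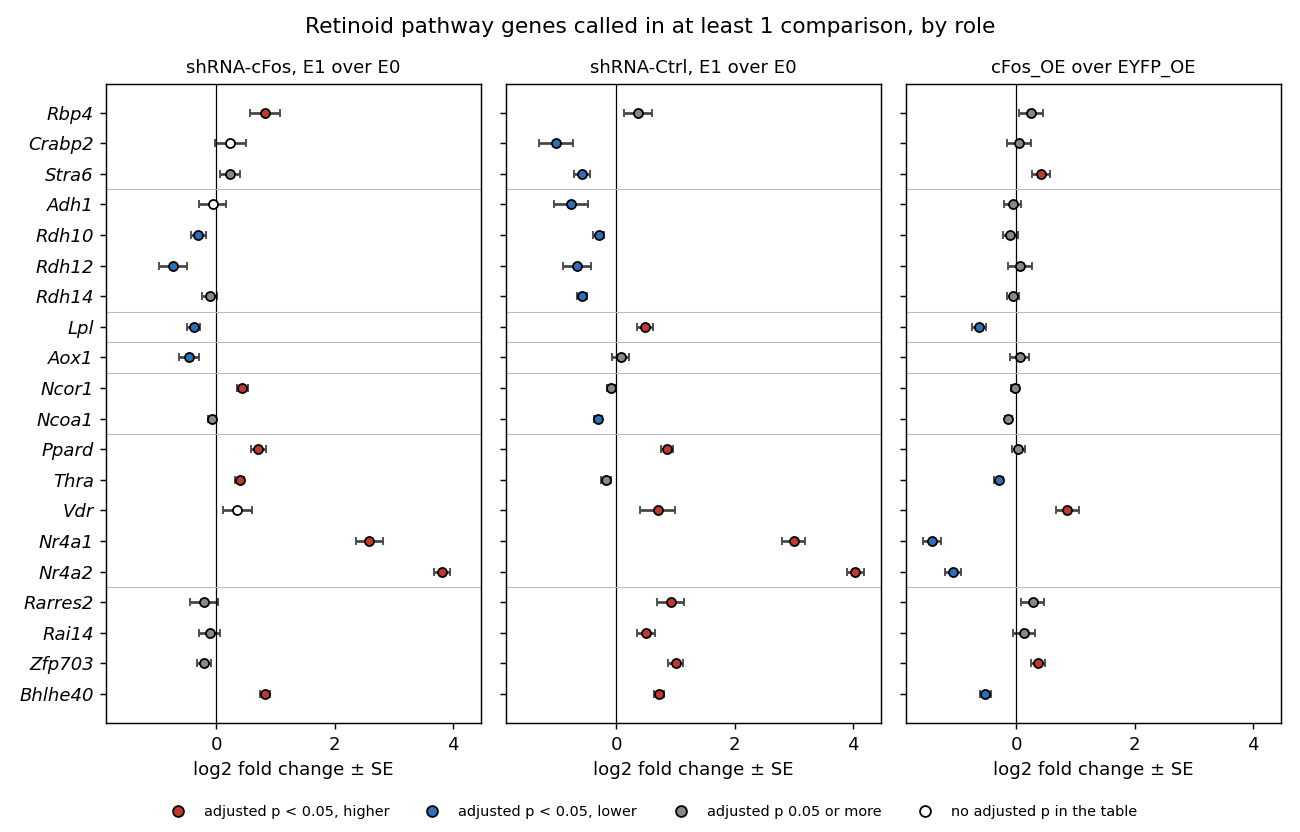
Log2 fold change ± standard error (x axis) in the 3 comparisons of the authors' deposited tables for the 20 further pathway genes called in at least 1 of them, grouped by role with grey lines (carriers, dehydrogenases, ester enzymes, oxidases, coregulators, receptor partners, induced genes). Nr4a1 and Nr4a2 lie to the right at E1 with either hairpin and to the left with overexpression.

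The 5 genes whose pattern over the 3 comparisons was most like that of Cyp26b1, by Euclidean distance of log2 fold changes among 14340 other genes, were Crispld1 (distance 0.88), Sebox (0.99), Prkcd (0.99), Robo3 (1.08) and Cdh24 (1.09), computed from the authors' deposited tables. They encode a secreted cysteine-rich protein, a homeobox factor, a protein kinase C, an axon guidance receptor and a cadherin. With overexpression they stood at -1.13, -1.22, -1.11, -0.80 and -0.89 in the authors' deposited table. None came closer to Cyp26b1 than 0.88, and the distance rests on only 3 values a gene.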

How the data were processed

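RNA-seq of dentate gyrus was grouped by sample titles into 6 groups of 3 libraries. For the authors' steps, TopHat2, DESeq2 and build mm9 are listed per the submitters' processing notes, with no roles; versions, the counter, the annotation and the strand setting were not found in the labels or headers. Per the file headers, each deposited table gives a mean normalized count (a signal value), a log2 fold change with its standard error, a Wald score, a p-value and an adjusted p-value. The tables hold 0 columns per library, so the planned fits on libraries were replaced by the authors' own results. In the deposited overexpression file, 27 names turned into dates were left out.

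The authors' standard errors reach at most 0.26, 0.29 and 0.20 (shRNA-cFos, shRNA-Ctrl, overexpression), the pattern that shrinkage by a zero-centred prior leaves; that prior was removed algebraically, which is uncertain near those limits. Differences of E1 responses were divided by the combined standard error (squares summed, then the root; scipy 1.17.1), a step tested on simulated data. Genes, pathway list, 10 marker lists and tests were chosen with earlier results of these data known. Named were all members, called pathway genes (up to 4 a role, largest change first) and the 5 genes nearest to Cyp26b1. Alternatives were a stricter p, a fold minimum, adjustment over all genes with a p, centring and prior removal.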

Additional observations from a re-analysis of the deposited data

Results flagged for a closer look

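Aldh1a1 and Aldh1a2 stood out because their E1 responses differed between the hairpins by the test of the difference. Aldh1a1 responded lower with shRNA-cFos, with a difference on the log2 scale of -0.54 ± 0.18 (normal approximation, adjusted p = 0.016), computed from the authors' deposited tables, and passed at neither the stricter threshold nor the fold minimum. Aldh1a2 responded higher with shRNA-cFos, by 0.89 ± 0.35 (normal approximation, adjusted p = 0.049), computed from the authors' deposited tables, beside meningeal fibroblast markers with a median difference of 0.85, whose part was not tested.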

How the results depend on the processing

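No paired analysis was possible because the tables hold comparisons and no values per library; for the same reason no replicate could be left out. At an adjusted p under 0.01 the members called numbered 2 for shRNA-Ctrl (of 4), and those with a different E1 response 0 by the normal approximation (of 2, with 4 at an unadjusted p under 0.05). A fold minimum of 1.5 left 1 member for shRNA-cFos (of 3), 2 for shRNA-Ctrl (of 4) and 1 with a different response, and 6, 10 and 4 pathway genes for shRNA-cFos, shRNA-Ctrl and overexpression (of 11, 16 and 8). Adjusting over every gene with a p left 1 member with a different response, since Aldh1a2 was lost, and added Aldh1a3 with shRNA-cFos. The share of all tested genes called was not counted under these settings. These counts therefore do not say whether the listed genes lost calls more readily than other genes. Centring reversed the sign of 2 values near 0 with overexpression, Rara (0.0046) and Rarb (0.0050). Of the other recomputed values of single members, 177 kept direction and call and 11 lost the call. Many of the 177 could not have come out otherwise. The stricter p and the fold minimum leave each value as it was and can only remove calls, so uncalled values stay uncalled. Cyp26b1 with overexpression kept its direction and call under all 5 alternatives run, at -2.17 with the prior removed. Prior removal leaves each ratio of fold change to error as it was, so it cannot change a call within 1 table; between tables it moved the E1 difference of Aldh1a2 to 1.36 and of Cyp26b1 to -0.94, with no call changed among the members. The unknown depth limits what low genes such as Aldh1a3 can show.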

Other observations

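Markers of other cell types are described here by counts of calls. With shRNA-cFos 16.3% of all tested genes were higher and 11.7% lower, and with shRNA-Ctrl 16.8% and 16.2%. The shares were 7.10% and 5.86% with overexpression, and 12.9% and 11.0% by the test of the difference. Interneuron markers were higher at E1 for 4 of 7 with shRNA-cFos (median log2 fold change 0.52) and 6 of 7 with shRNA-Ctrl (0.34), computed from the authors' deposited tables; with overexpression 1 was higher and 1 lower. Microglial markers were higher for 1 of 7 and lower for 3 with shRNA-cFos, higher for 6 with shRNA-Ctrl, and higher for 4 with overexpression, counted in the authors' deposited tables. Dentate granule neuron markers such as Prox1 were higher for 5 of 8 with shRNA-cFos (median 0.25), and lower for 5 and higher for 1 with shRNA-Ctrl (median -0.49), computed from the authors' deposited tables; 7 of 8 had a higher response with shRNA-cFos by the test of the difference.

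The counts that follow stand against the same shares over all genes, and counts of 1 or 2 in such short lists are not read as a change. Astrocyte markers were higher for 2 of 8 with shRNA-Ctrl, and higher for 3 and lower for 1 with overexpression, counted in the authors' deposited tables. Endothelial and mural markers were higher for 1 of 6 and lower for 1 with shRNA-cFos, higher for 2 with shRNA-Ctrl, and lower for 3 with overexpression, counted in the authors' deposited tables. Pyramidal neuron markers were higher for 2 of 7 with shRNA-cFos, higher for 1 of 8 and lower for 1 with shRNA-Ctrl, and lower for 1 of 8 with overexpression, counted in the authors' deposited tables. Mossy cell markers were higher for 1 of 4 in each hairpin arm, choroid plexus markers for 2 of 10 with overexpression, and oligodendrocyte markers were called by DESeq2 for 0 of 6 in all 3 comparisons (0 at an unadjusted p under 0.05), counted in the authors' deposited tables.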
